A study of Saccharomyces cerevisiae with 2 samples.

Results

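The genes of trehalose synthesis and breakdown were compared between an xrn1 deletion strain and a wild-type strain of the budding yeast Saccharomyces cerevisiae. The set was chosen by gene name and holds 7 of the 6448 reading frames in the count table: TPS1, TPS2, TPS3 and TSL1 for synthesis, and NTH1, NTH2 and ATH1 for breakdown. All 7 were found, none has an annotated intron, and all 7 passed the minimum of 100 counts over both libraries. Xrn1 is a nuclease of the cytoplasm that digests decapped mRNA in the 5′ to 3′ direction, and the series asks how its loss affects RNA synthesis. Transcription was measured by a genomic run-on assay (BioGRO-seq), in which engaged RNA polymerases of permeabilised cells extend their transcripts with a biotin-labelled UTP and the labelled RNA is purified and sequenced. The xrn1 deletion strain came from the Euroscarf collection, and the wild type was BY4741, a haploid MATa laboratory strain with several nutrient auxotrophies. Both cultures were taken at an OD600 of 0.55 and had the same run-on reaction of 5 min at 30 °C, with 0.5% sarkosyl. The sources used here do not give the growth medium. There was 1 library per strain, so no test of the strains is possible, no p-value is given, and all intervals are 95% intervals that cover counting error only.

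Trehalose is a non-reducing disaccharide of glucose that yeast stores as a reserve sugar and that protects proteins and membranes during heat, drying and starvation. Tps1 joins glucose phosphate to UDP-glucose to give trehalose phosphate, and the phosphatase Tps2 removes the phosphate. Both work in a complex with the large regulatory subunits Tps3 and Tsl1. The cytosolic neutral trehalases Nth1 and Nth2 and the acid trehalase Ath1, which acts on trehalose outside the cytosol, split trehalose back into glucose. Many genes of this pathway are known targets of the stress transcription factors Msn2 and Msn4, which bind the stress response element and are held in check by protein kinase A during growth on ample glucose.

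The libraries held 46396400 counts for the xrn1 deletion strain and 64934493 for the wild type. Ratios (xrn1 deletion over wild type) were scaled by 0.701, which is the unscaled ratio of the middle protein-coding gene, so that all ratios are relative to the median gene. XRN1 itself had 53 counts in the deletion strain and 41954 in the wild type, which matched its label. LEU2, URA3 and MET17, which are deleted in BY4741, had at most 12 counts in either library, and HIS3, only partly deleted there, had 2720 counts in the deletion strain and 2839 in the wild type. The mating type a gene STE2 had 18234 counts in the deletion strain and 58886 in the wild type, whereas the alpha pheromone genes MF(ALPHA)1 and MF(ALPHA)2 had 15 and 17 counts in the deletion strain, against 16 and 22 in the wild type. The other mating type a markers MFA1, MFA2 and BAR1 had ratios of 0.501, 0.459 and 0.422. Their counts were 339, 1458 and 11339 in the deletion strain and 965, 4533 and 38295 in the wild type. The alpha markers STE3 and SAG1 had ratios of 0.215 and 0.743. STE3 had 35 counts in the deletion strain and 232 in the wild type. SAG1 had 2797 and 5368, more than MFA1 and MFA2 in both libraries. The part of these differences in the results below was not tested.

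The stretches before the start codons that carry matches to the core of the stress response element (AGGGG, or CCCCT when read on the opposite strand) are shown for all 7 genes, because the genes differ widely in the number of these matches. Each sequence was read from the RefSeq R64 genome on the coding strand of its gene, 5′ to 3′, and capitals mark the matches. Within the 800 bases before the start codon the stretch is the one with the most matches in at most 300 bases. That length includes 10 bases on either side of the outer matches.

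For the synthesis genes:
TPS1, chrII:490617-490874, minus strand: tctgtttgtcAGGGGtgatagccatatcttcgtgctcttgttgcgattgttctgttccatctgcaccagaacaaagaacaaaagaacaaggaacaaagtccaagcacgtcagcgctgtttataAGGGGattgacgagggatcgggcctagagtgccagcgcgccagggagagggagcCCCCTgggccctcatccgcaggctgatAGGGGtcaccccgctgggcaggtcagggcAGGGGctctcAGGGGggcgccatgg
TPS2, chrIV:593360-593599, plus strand: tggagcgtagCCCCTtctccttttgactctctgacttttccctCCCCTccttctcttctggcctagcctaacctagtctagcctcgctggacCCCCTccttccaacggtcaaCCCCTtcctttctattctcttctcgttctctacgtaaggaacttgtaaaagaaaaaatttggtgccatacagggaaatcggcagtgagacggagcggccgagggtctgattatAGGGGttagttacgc
TPS3, chrXIII:793572-793614, minus strand: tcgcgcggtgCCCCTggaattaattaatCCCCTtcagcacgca
TSL1, chrXIII:70236-70473, plus strand: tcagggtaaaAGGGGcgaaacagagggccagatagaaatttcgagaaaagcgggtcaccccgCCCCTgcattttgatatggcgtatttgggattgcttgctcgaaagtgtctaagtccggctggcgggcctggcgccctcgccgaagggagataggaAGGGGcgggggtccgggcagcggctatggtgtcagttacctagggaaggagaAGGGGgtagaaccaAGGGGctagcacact

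For the trehalase genes:
NTH1, chrIV:452613-452835, minus strand: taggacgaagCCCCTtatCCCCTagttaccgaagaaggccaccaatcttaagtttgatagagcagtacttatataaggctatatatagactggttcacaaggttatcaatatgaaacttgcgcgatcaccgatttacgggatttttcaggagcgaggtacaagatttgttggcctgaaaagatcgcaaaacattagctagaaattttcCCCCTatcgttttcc
NTH2, chrII:241956-241980, minus strand: gcgggggtacCCCCTttagatttat
ATH1, chrXVI:615065-615089, plus strand: ctcttctttgCCCCTcaaaatttat

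Transcription of 3 of the 4 synthesis genes was at least 3.65-fold higher in the xrn1 deletion strain, led by the regulatory subunit gene TSL1 at 7.32-fold. Of the 3 trehalase genes, NTH1 was 2.04-fold higher, and NTH2 and ATH1 were close to the median gene. A gene was called higher at a ratio of at least 2, or lower at a ratio of at most 0.5, with an interval that excluded 1. By this rule 4 of the 7 genes were called higher (TSL1, TPS2, TPS1 and NTH1) and 0 lower. Among all 5198 protein-coding genes with at least 100 counts, 4.06% were called higher and 1.52% lower. All 7 ratios were above that of the median gene, and their median log2 ratio was 1.03 beside 0.00 over all genes tested. With a fold threshold of 1.5, TPS3 was called higher as well, which made 5 of 7, beside 10.3% of all genes called higher and 5.35% lower.

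**Figure D1:**
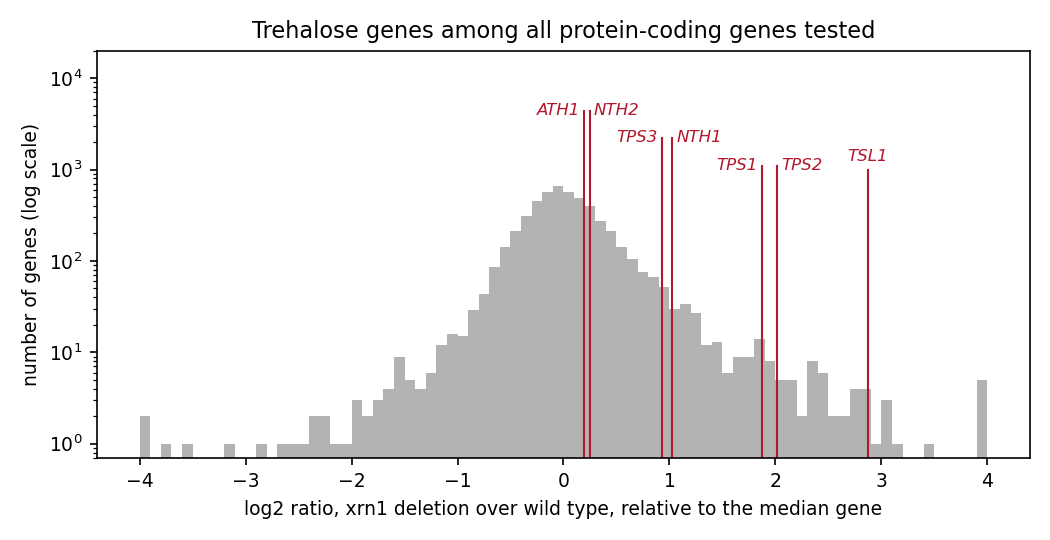
Number of protein-coding genes (log scale) by log2 ratio of xrn1 deletion over wild type relative to the median gene, with ratios beyond 4 on either side placed in the end bars. Red lines mark the 7 trehalose genes, of which TSL1 at 2.87 lies furthest right and ATH1 and NTH2 lie in the body of the distribution.

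TPS1 (YBR126C, chromosome II, 488905 to 490392, minus strand), which encodes the trehalose phosphate synthase, had 93499 counts in the xrn1 deletion library and 36503 in the wild-type library. The deletion library was the higher although it was the smaller in total. The ratio relative to the median gene was 3.65 (3.61 to 3.70), rank 61 of the 5198 genes. Its level was 1354 RPKM (counts per kb of coding length per 1000000 counts of the library) in the deletion strain and 378 RPKM in the wild type. By this level TPS1 ranked 75 in the deletion strain and 352 in the wild type among the 5177 genes with an annotated length.

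TPS2 (YDR074W, chromosome IV, 593893 to 596583, plus strand), which encodes the trehalose phosphate phosphatase, had 56589 counts in the xrn1 deletion library and 19942 in the wild-type library. Its ratio was 4.05 (3.98 to 4.11), rank 49. The ratio exceeded that of TPS1 by a factor of 1.11 (1.09 to 1.13). Its level was 453 RPKM in the deletion strain and 114 in the wild type. The number of TPS2 counts per TPS1 count, each per kb, was 0.335 (0.331 to 0.338) in the deletion strain and 0.302 (0.297 to 0.307) in the wild type.

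The regulatory subunit genes differed from each other. TSL1 (YML100W, chromosome XIII, 70624 to 73920, plus strand), for the larger one, had 103495 counts in the xrn1 deletion library and 20156 in the wild-type library. Its ratio of 7.32 (7.21 to 7.43) was the highest of the 7 and stood at rank 13 of all genes tested. TPS3 (YMR261C, chromosome XIII, 790205 to 793369, minus strand), for the other one, had 18925 counts in the deletion library and 14168 in the wild-type library. Its ratio of 1.90 (1.86 to 1.95), rank 250, was under the fold threshold, and it was not called. The level of TSL1 per kb was 5.25 times (5.17 to 5.33) that of TPS3 in the deletion strain and 1.37 times (1.34 to 1.40) in the wild type. This quotient needs no scaling between libraries, and it was 3.84 times (3.74 to 3.95) as large in the deletion strain as in the wild type.

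NTH1 (YDR001C, chromosome IV, 450220 to 452475, minus strand), which encodes the main neutral trehalase, had 27643 counts in the xrn1 deletion library and 19328 in the wild-type library. Its ratio was 2.04 (2.00 to 2.08), rank 200, at the edge of the call rule. Over the other scalings tried it went down to 2.002. Its level was 264 RPKM in the deletion strain and 132 in the wild type.

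NTH2 (YBR001C, chromosome II, 238941 to 241283, minus strand), the paralog of NTH1, had 7410 counts in the xrn1 deletion library and 8895 in the wild-type library, a ratio of 1.19 (1.15 to 1.23). ATH1 (YPR026W, chromosome XVI, 615379 to 619014, plus strand), for the acid trehalase, had 5319 counts in the deletion library and 6619 in the wild-type library, a ratio of 1.15 (1.10 to 1.19). Both lay within the middle part of all genes, which spans log2 ratios of −0.22 to 0.26 between the quartiles, with log2 ratios of 0.25 for NTH2 and 0.20 for ATH1. Their raw counts were lower in the deletion library, and their ratios were above 1 after the scaling to the median gene. The level of NTH1 per kb was 3.87 times (3.78 to 3.98) that of NTH2 in the deletion strain and 2.26 times (2.20 to 2.31) in the wild type.

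**Figure D2:**
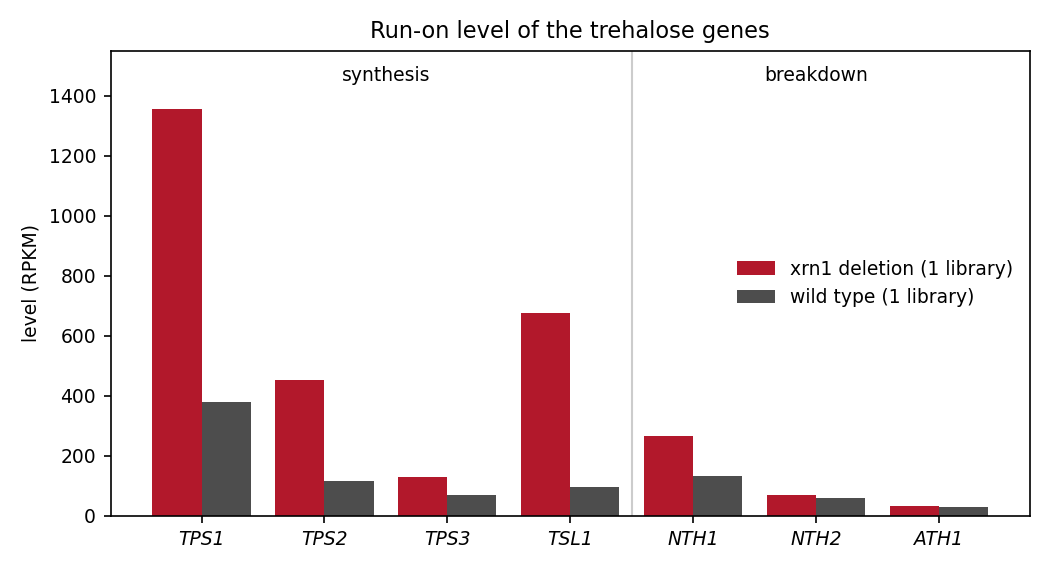
Run-on level of each trehalose gene in RPKM, with the xrn1 deletion library (red) left of the wild-type library (grey), 1 library each and no error bars. TPS1 reaches 1354 in the deletion strain and 378 in the wild type, and TSL1 passes TPS2 and NTH1 in the deletion strain.

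The order of the ratios was TSL1, TPS2, TPS1, NTH1, TPS3, NTH2 and ATH1. Each gene differed from its neighbour in this order beyond counting error except NTH2 and ATH1, whose ratios stood at 1.04 to each other with an interval of 0.989 to 1.09. The order of the levels per kb was TPS1, TSL1, TPS2, NTH1, TPS3, NTH2 and ATH1 in the deletion strain and TPS1, NTH1, TPS2, TSL1, TPS3, NTH2 and ATH1 in the wild type. All neighbours in both orders of levels differed beyond counting error. TSL1 and NTH1 exchanged places between the strains, while TPS1 was the most and ATH1 the least transcribed of the 7 in each. In the deletion strain TSL1 had 677 RPKM, TPS3 129, NTH2 68.2 and ATH1 31.5. In the wild type TSL1 had 94.1 RPKM, TPS3 68.9, NTH2 58.5 and ATH1 28.0.

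Summed over the 4 synthesis genes, there were 272508 counts in the xrn1 deletion strain and 90769 in the wild type, a ratio of 4.28 (4.25 to 4.31). Summed over the 3 trehalase genes, there were 40372 counts in the deletion strain and 34842 in the wild type, a ratio of 1.65 (1.63 to 1.68). The synthesis genes thus had 6.75 (6.68 to 6.82) counts per trehalase count in the deletion strain and 2.61 (2.57 to 2.64) in the wild type. The 7 genes together took 0.674% of all counts in the deletion strain and 0.193% in the wild type.

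The make-up of the counts within each set differed as well. TSL1 took 38.0% (37.8% to 38.2%) of the synthesis counts in the deletion strain and 22.2% (21.9% to 22.5%) in the wild type. TPS3 took 6.94% (6.85% to 7.04%) in the deletion strain and 15.6% (15.4% to 15.8%) in the wild type. TPS1 took 34.3% and TPS2 20.8% in the deletion strain, against 40.2% and 22.0% in the wild type. Among the trehalases, NTH1 took 68.5% (68.0% to 68.9%) in the deletion strain and 55.5% (54.9% to 56.0%) in the wild type. NTH2 took 18.4% and ATH1 13.2% in the deletion strain, against 25.5% and 19.0% in the wild type. These intervals are exact binomial ones, and longer genes collect more counts at equal transcription.

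**Figure D3:**
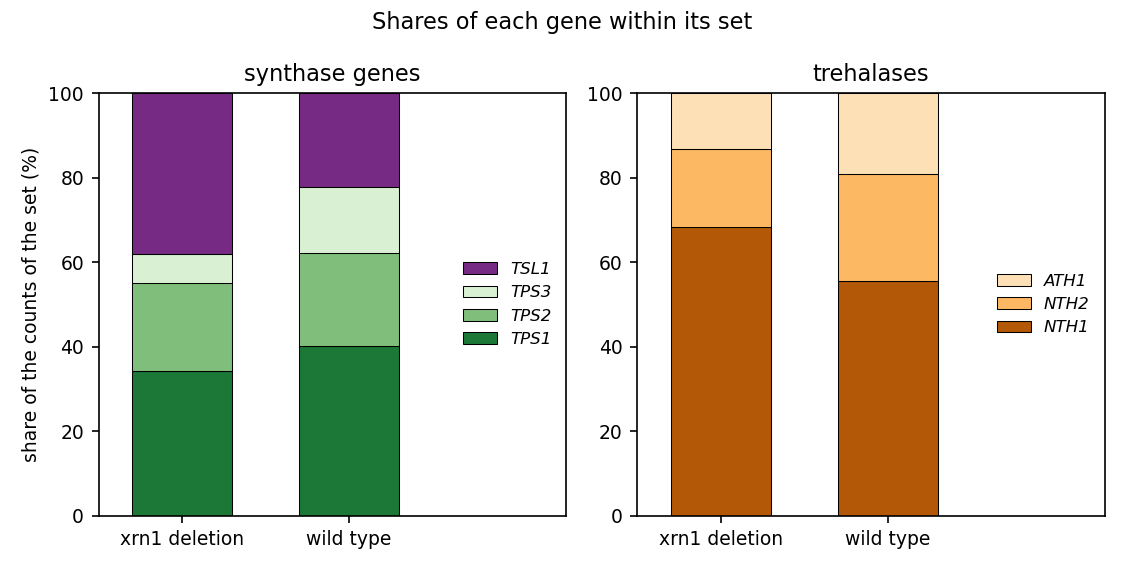
Share in percent of each gene in the counts of the 4 synthesis genes (left panel) and of the 3 trehalase genes (right panel), with the xrn1 deletion library left of the wild-type library in each. TSL1 widens to 38.0% in the deletion strain, against 22.2% in the wild type, and NTH1 to 68.5%, against 55.5%.

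The genes also differed in the stretches printed above. Within 800 bases before the start codon TPS1 and TSL1 had 6 matches each to the 5-base core, TPS2 had 5, NTH1 3, TPS3 2, and NTH2 and ATH1 1 each. The printed stretch of TSL1 holds 5 of its 6 matches, and the one furthest from the start codon lies outside it. At least 1 match was found before 48.2% of the 5177 genes, at least 2 before 16.3%, at least 3 before 4.50%, at least 5 before 0.483% and at least 6 before 0.174%. The genes with at least 5 matches were 25, of which TPS1, TPS2 and TSL1 are 3. The matches lay between 235 and 472 bases before the start codon in TPS1, between 304 and 523 bases in TPS2 and between 161 and 606 bases in TSL1. One match of TPS1 lies inside the neighbouring gene MEO1, 2 of TSL1 lie inside the putative frame YML100W-A, and that of NTH2 lies inside the coding sequence of RER2. A match is a description of letters and not a binding site.

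**Figure D4:**
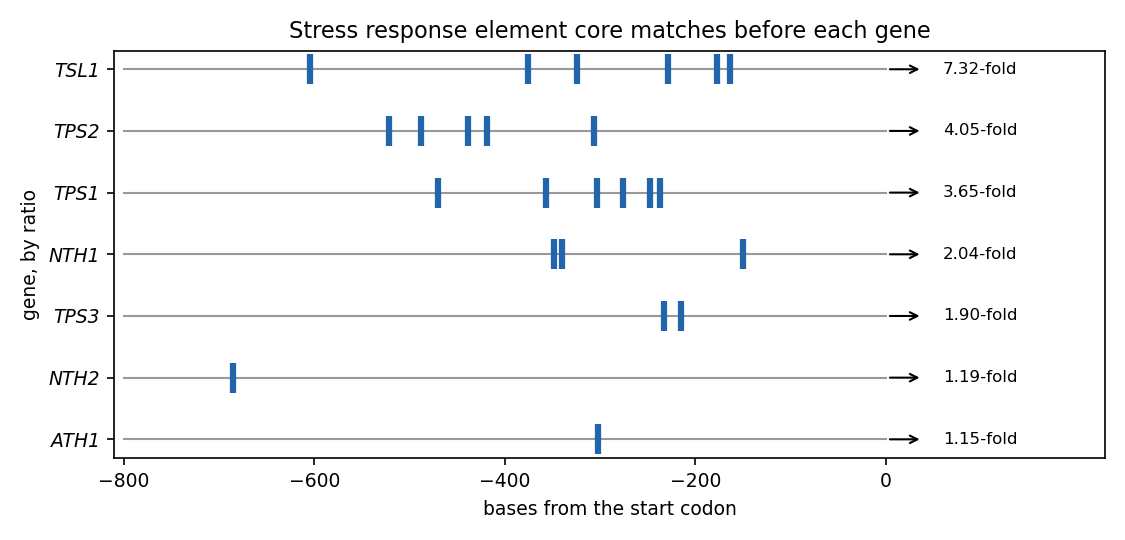
Matches to the stress response element core (blue marks) in the 800 bases before the start codon of each trehalose gene, on a linear scale of bases from the start codon, with genes from the highest ratio of xrn1 deletion over wild type at the top (TSL1, 7.32) to the lowest (ATH1, 1.15). The 3 genes at the top have 5 or 6 matches each and the 2 at the bottom have 1.

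Over the other protein-coding genes, the share called higher in the xrn1 deletion strain was larger where there were more matches in the 800 bases, a window chosen after its matches were seen. It was 1.79% of the 2681 genes with 0 matches, 4% of 1651 with 1, 8.70% of 609 with 2, 13.1% of 160 with 3, 21.3% of 47 with 4 and 31.8% of 22 with 5 or more. The median log2 ratio was −0.04 with 0 matches, 0.01 with 1, 0.14 with 2, 0.23 with 3, 0.16 with 4 and 0.66 with 5 or more, and so did not increase at every step. In the 500 bases before the start codon the shares called higher were 2.08% of 3412 genes with 0 matches, 5.07% of 1340 with 1, 12.7% of 324 with 2 and 22.7% of 75 with 3. There the order broke at the top, with 50% of 10 genes with 4 matches and 33.3% of 9 with 5 or more. Divergent neighbours share the same stretch of DNA, so these genes are not independent, and no test was made. The search for this element was not planned, and calls were broken down by number of matches for this element only. Whether the element has a part in the ratios was not tested. In the group with 5 or more matches 7 of the 22 genes were called higher and 1 lower.

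Of the 14 nearest annotated neighbours of the 7 genes, 12 were in the protein-coding class. Of these, 10 were not called and had ratios between 0.832 and 1.51. The other 2 were called higher, beside 4.06% of all genes tested, and each is transcribed away from the upstream side of a synthesis gene. MEO1 (YBR126W-A), which begins 457 bases beyond the start of TPS1 on the opposite strand, had 14616 counts in the deletion library and 9880 in the wild-type library, a ratio of 2.11 (2.06 to 2.16). YMR262W, divergent from TPS3 at a distance of 356 bases, had 6368 counts in the deletion library and 4339 in the wild-type library, a ratio of 2.09 (2.01 to 2.18). The sources used here do not say whether counting used strand, so reads of divergent or antisense transcripts cannot be assigned with certainty. The upstream neighbour of TSL1, the putative frame YML100W-A, had 73 counts in the deletion library and 82 in the wild-type library, a ratio of 1.27 (0.913 to 1.76), beside the 7.32 of TSL1.

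Reads shared between paralogs touched few bases of the 7 genes. Of all words of 30 bases in their coding sequences, 4 in NTH1 (0.18%) and 4 in NTH2 (0.173%) occurred again in the genome, and 0 in the other 5 genes. The sources used here do not give the read length, and shorter reads can match in more places.

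The genes that supply the substrates of Tps1 were unequal. HXK1, the glucose-repressed hexokinase gene, had 34620 counts in the deletion library and 2862 in the wild-type library, a ratio of 17.2 (16.6 to 17.9). The glucokinase gene GLK1, which overlaps another annotated gene, had 114083 counts in the deletion library and 54513 in the wild-type library, a ratio of 2.98 (2.95 to 3.01). HXK2, for the hexokinase that predominates on glucose, had a ratio of 0.777 (0.769 to 0.787). PGM2, for the major phosphoglucomutase, was at 1.94 (1.87 to 2.01) and its paralog PGM1 at 0.853 (0.822 to 0.886). UGP1, for the enzyme that makes UDP-glucose, was at 1.46 (1.44 to 1.48). In this list 2 of 6 genes were called higher and 0 lower, beside 4.06% and 1.52% of all genes tested. The median log2 ratio of the list was 0.75.

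Among genes that act on the neutral trehalases, DCS2 had a ratio of 3.12 (2.93 to 3.32) and DCS1, a decapping scavenger gene whose product has also been linked to Nth1 activity, one of 2.09 (2.00 to 2.18). BMH1 and BMH2, for the phosphoprotein-binding partners of Nth1, had ratios of 0.917 (0.908 to 0.926) and 1.08 (1.05 to 1.10). In this list of 4 genes the calls were 2 higher and 0 lower, beside 4.06% and 1.52% of all genes tested. Its median log2 ratio was 0.58. MAL11, for a transporter that also takes up trehalose, had 3498 counts in the deletion library and 2713 in the wild-type library, a ratio of 1.84 (1.75 to 1.93). It was not called.

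Glycogen is the other reserve sugar made from UDP-glucose, and its genes are set beside those of trehalose. Of 12 glycogen genes, 5 were called higher and 0 lower, beside 4.06% and 1.52% of all genes tested. Their median log2 ratio was 0.85. The glycogen phosphorylase gene GPH1 had the highest ratio, 6.53 (6.18 to 6.91), and the primer gene GLG2 the lowest, 0.665 (0.611 to 0.724). The glycogen synthase genes GSY2 and GSY1, with the largest counts of the list, had ratios of 5.16 (5.04 to 5.29) and 3.90 (3.78 to 4.04). The other breakdown genes of the list, named after their values were seen, were not called. They were the debranching enzyme gene GDB1 at 1.54 (1.48 to 1.61) and the sporulation glucoamylase gene SGA1 at 1.83 (1.61 to 2.09). In both pathways the breakdown genes were thus unequal, and the difference between the pathways was not tested.

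**Figure D5:**
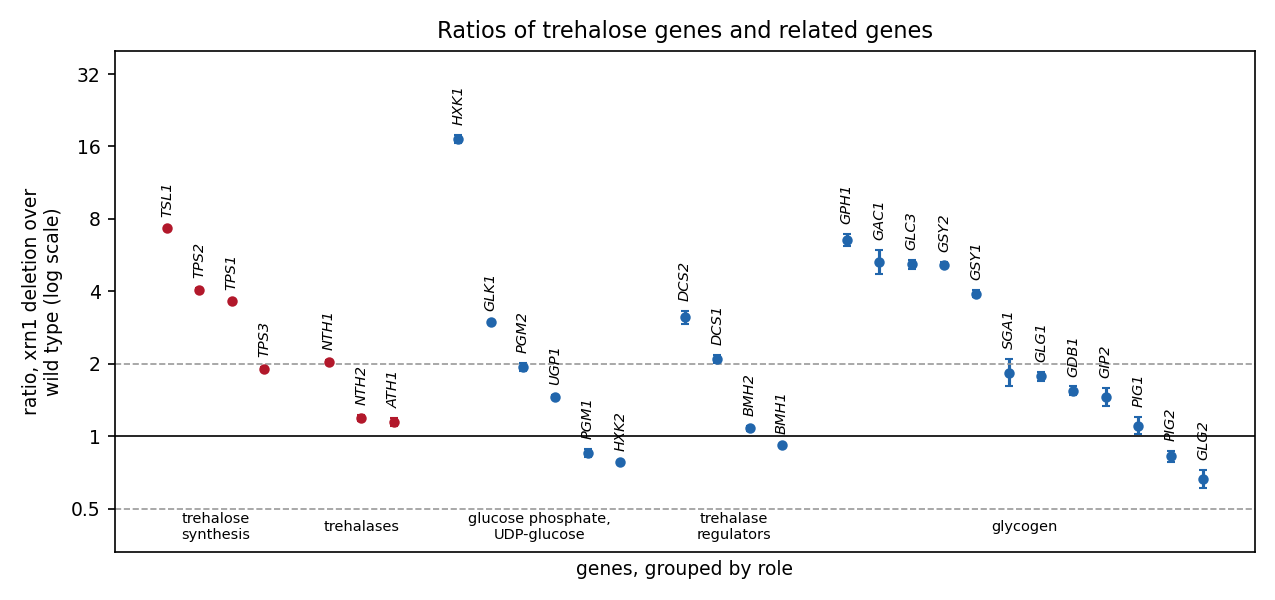
Ratio of xrn1 deletion over wild type relative to the median gene (log scale) for the trehalose genes (red) and for genes of substrate supply, trehalase regulation and glycogen (blue), with 95% counting intervals, from 1 library per strain. The solid line is the median gene and the dashed lines are ratios of 2 and 0.5, and the trehalose genes run between 7.32 for TSL1 and 1.15 for ATH1.

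Genes upstream of the pathway in stress and nutrient signalling were mostly near the median gene. In the Ras and protein kinase A list 0 of 12 genes were called, with a median log2 ratio of −0.03. Over all genes tested 4.06% were called higher and 1.52% lower. The inhibitors of Ras IRA2 and IRA1, with the largest counts, had ratios of 0.901 and 0.953, RAS2 the highest at 1.66 and the phosphodiesterase gene PDE2 the lowest at 0.679. Among 8 stress and glucose regulators 1 was called higher and 0 lower, beside the same shares of all genes, with a median log2 ratio of 0.15. The one called was YAK1, a kinase gene that antagonises protein kinase A in growth control, with 18728 counts in the deletion library and 6544 in the wild-type library and a ratio of 4.08 (3.97 to 4.20). YAK1 overlaps another annotated gene, and the part of that overlap in its ratio was not tested. RIM15, with large counts as well, was at 0.974. MSN2 was the lowest at 0.838 (0.815 to 0.862), and its paralog MSN4, named after its value was seen, was at 1.94 (1.88 to 2.00).

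A list of 20 stress-induced genes, chosen like the other lists with results of these data known, had 12 called higher and 0 lower. Over all genes tested 4.06% were called higher and 1.52% lower. The median log2 ratio of the list was 1.44. HSP104, for the disaggregase, and GPD1, for glycerol phosphate dehydrogenase, had the largest counts and ratios of 2.82 and 1.18, which for GPD1 was the lowest of the list. HSP12 had the highest, 38.1 (30.5 to 48.2). In this list the ratio of HSP12 alone exceeded that of TSL1, 7.32, while NTH2 at 1.19 and ATH1 at 1.15 lay beside the lowest.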

How the data were processed

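The authors deposited 1 table of raw read counts per reading frame. Tools listed in the submitters' processing notes are TopHat2 2.1.1, featureCounts, Subread, Trimmomatic and FastQC, and the builds are R64 and sacCer3. Settings are not listed. Positions, symbols and sequences came from RefSeq R64, where 5831 of the 6448 rows matched a locus tag on the same chromosome. Groups followed the genotype labels, with 1 library each. Ratios were scaled to the middle ratio of the protein-coding genes that had 100 or more counts, so a shift shared by every gene is invisible. Ratio intervals are 95% exact conditional ones, and those between genes of 1 ratio are log-normal. The protocols name no molecular identifiers. Only members, the target and marker genes, the genes of the small lists, neighbours and, in longer lists, the 2 largest counts and the highest and lowest ratio are named. The search for upstream elements was not planned, and its window was chosen after its matches were seen. The members and lists were chosen with earlier results of these data known. The procedure was tested on simulated data with counting error only, which does not cover variation between cultures. Alternatives were 4 other scalings, 2 other count minimums, a fold threshold of 1.5, overlapping genes left out, 5 added to each count, shares per length and a shorter upstream window. Tools were scipy 1.17.1, pandas 2.3.3, numpy 2.4.6 and biopython 1.88 in Python 3.11.15, with edgeR 4.0.16 and DESeq2 1.42.0 in R 4.3.3 for scaling factors only.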

Additional observations from a re-analysis of the deposited data

Results flagged for a closer look

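Reading frames outside the protein-coding class were not among the genes tested for calls. Those beside the trehalose genes with a ratio above 1 beyond counting error are given here. The dubious frame YBR126W-B, whose name places it beside TPS1, had 11650 counts in the xrn1 deletion library and 8266 in the wild-type library, a ratio of 2.01 (1.95 to 2.07). The ratio of MEO1 (YBR126W-A) was 2.11, and that of TPS1 was 3.65. The dubious frame YML099W-A, named next to the downstream neighbour of TSL1, had 21 counts in the deletion library and 5 in the wild-type library, a ratio of 5.99 (2.20 to 20.3). The positions of these frames were not used here, and overlap with other genes was not tested.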

How the results depend on the processing

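No paired analysis was possible because there were only 2 libraries, 1 per strain, and leaving either out would end the comparison. TPS1, TPS2, TSL1 and NTH1 were called higher under all 4 other scalings, with no count minimum, with a minimum of 500 and with overlapping genes left out, and 0 members were called lower. With a fold threshold of 1.5, TPS3 was called as well, making 5, and 536 protein-coding genes were called higher and 278 lower. At 2-fold the alternatives gave 182 to 229 genes higher and 62 to 90 lower. No ratio of a member changed its side of 1, and those of TSL1 and NTH1 ranged from 7.19 to 7.32 and from 2.002 to 2.04. Per coding length, the shares of TPS1, TPS2, TPS3 and TSL1 in the synthesis counts were 51.8%, 17.3%, 4.93% and 25.9% in the xrn1 deletion strain and 57.7%, 17.4%, 10.5% and 14.4% in the wild type. Those of NTH1, NTH2 and ATH1 in the trehalase counts were 72.6%, 18.7% and 8.67% in the deletion strain and 60.4%, 26.8% and 12.8% in the wild type. Within 500 bases before the start codon, a window chosen after seeing the data, TPS1 kept 6 matches to the stress element core, TSL1 5, TPS2 4, NTH1 3, TPS3 2 and ATH1 1, and NTH2 had 0. The intervals given treat every read as an independent count, and no molecular identifiers are named, so these intervals may be too narrow. Variation between cultures was not measured.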

Other observations

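Other elements before the trehalose genes were sparser or less uneven. Matches to the paired core of the heat shock element (TTCNNGAA or GAANNTTC, each its own reverse complement) within 800 bases before the start codon numbered 3 in TSL1, 2 in ATH1, 1 each in TPS1, TPS3 and NTH2, and 0 in TPS2 and NTH1. At least 1 was found before 51.3% of the 5177 genes and at least 3 before 4.42%. The post-diauxic shift element (TTAGGGAT or TAAGGGAT on either strand) had 1 match, before ATH1, and at least 1 match was found before 4.06% of all genes.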
